A study of Caenorhabditis elegans with 2 samples.

Results

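Binding of LIN-39, a Hox transcription factor of Caenorhabditis elegans that patterns the mid-body, was examined at the starts of 48 DNA replication and cell cycle genes, out of 19973 protein-coding genes on the nuclear chromosomes. The genes were chosen by symbol: every protein-coding gene named mcm-, psf-, orc-, rfc-, cdk-, cyb-, cya-, cyd-, cye- or cki-, together with cdc-6, cdt-1, pcn-1, evl-18, lin-35, efl-1 and dpl-1. The naming rule uses no measured value, but it was written with earlier results of these data known. Chromatin immunoprecipitation and sequencing was done on whole L1 larvae, the first larval stage, in mixed-sex populations of strain OP18, whose genotype is unc-119(ed3) III with the integrated array wgIs18. This array supplies lin-39 fused to eGFP, so the protein profiled is a tagged transgene product. There was 1 group with 2 biological replicates and no second condition, and the age of the larvae is given as unknown. In whole animals, binding in few cells and weak binding in many cells cannot be told apart.

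DNA replication in animals starts when the origin recognition complex (ORC), CDC-6 and CDT-1 load the ring-shaped MCM helicase onto DNA in the G1 phase. Cyclins and cyclin-dependent kinases (CDKs) then fire the loaded origins, with CDC45 and the GINS complex joining MCM to form the active helicase. The sliding clamp PCNA, placed by the clamp loader RFC, holds polymerases on the template. CDK inhibitors of the p27 type hold cells in G1, and the Rb protein with E2F and DP factors represses many of these same genes in quiescent cells. In worms, many precursor cells that are born in the embryo rest in G1 after hatching and divide again during larval life.

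A gene was counted as having a peak when an optimal (reproducible) peak had its summit in the start window, which reaches 2000 bp upstream and 500 bp downstream of the annotated start, also where another gene start shared that summit. The optimal set holds 1488 peaks, and these are also the 1488 strongest regions of the pooled list of 30000 ranked regions. Signals are the submitters' own peak scores on a separate scale in each list, so the replicates are described by rank within their own list (rank 1 is the strongest). The lists give no read numbers, so the depth is unknown. The intervals below are exact binomial 95% intervals that treat each gene or peak as an independent draw. The gene sets were chosen rather than drawn at random, and neighbouring genes can share a summit. The intervals are thus a rough guide to the size of the sets, and they do not cover variation between the replicates.

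Of the 48 genes, 14 (29.2%, interval 17.0 to 44.1%) had an optimal peak at the start, beside 8.28% of all protein-coding genes. These 14 were cdc-6, orc-1, orc-2, orc-5, mcm-4, psf-3, rfc-4, pcn-1, cdk-5, cdk-7, cdk-9, cyb-1, efl-1 and lin-35. They shared 13 peaks, since the summit between orc-5 and cyb-1 fell in the windows of both. Given to the nearest start alone, the peaks marked 10 of the 48, beside 5.14% of all genes, and cdc-6, orc-1, orc-2 and cyb-1 dropped out because another start was closer. The count was 13, beside 8.03% of all genes, when the 1488 top regions of replicate 1 were used, and 15, beside 7.96%, with those of replicate 2. The strongest 744 optimal peaks marked 8 of the 48, beside 4.66% of all genes.

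**Figure D1:**
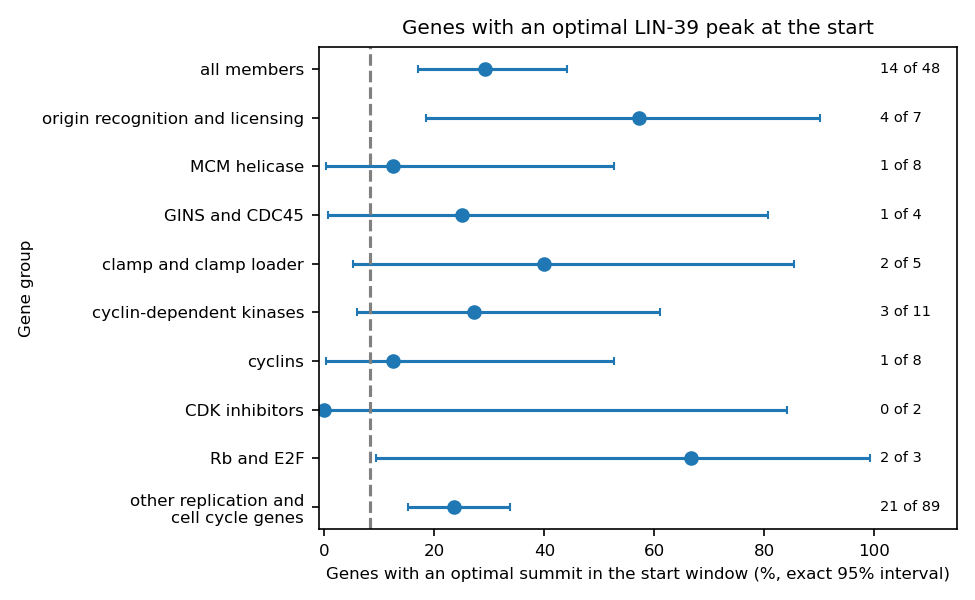
Share of genes with an optimal summit in the start window, in percent, for all 48 genes, for each role and for 89 other replication and cell cycle genes; points are the shares, bars are exact binomial 95% intervals, counts stand at the right and the dashed line marks the 8.28% of all protein-coding genes. Shares by role run from 0 of 2 CDK inhibitor genes to 4 of 7 origin recognition and licensing genes and 2 of 3 Rb and E2F genes, and the intervals are wide.

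Counts of peaks by role rested on few genes, and the interval of every role held the 29.2% of all 48 genes. A difference between roles is thus not shown. Of all protein-coding genes 8.28% had a peak, and the shares of MCM genes and of cyclin genes (12.5% each) lay near that. Origin recognition and licensing genes had peaks at 4 of 7, Rb and E2F genes at 2 of 3, clamp and clamp loader genes at 2 of 5, CDK genes at 3 of 11, GINS and CDC45 genes at 1 of 4, MCM genes at 1 of 8, cyclin genes at 1 of 8 and CDK inhibitor genes at 0 of 2. The prefix mcm- also brought in mcm-10, a replication factor outside the MCM ring, and mcm-3AP, annotated as a PCI domain protein. In the same way, cdk- brought in cdk-5, known for roles in neurons, and cdk-9, the kinase of the elongation factor P-TEFb. Both of these had a peak, whereas cdk-8 of the Mediator complex and the transcription kinase gene cdk-12 had none.

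The 4 strongest of these peaks on chromosomes other than the first are shown by their central sequence, because they carry the highest scores at replication and cell cycle genes for which sequence is given. Each run is RefSeq WBcel235 (ce11) sequence on the strand of the named gene, with 50 bases to either side of the summit and the central 11 bases in capitals. The cdk-5 run is III:13466366-13466466 (minus strand), the rfc-4 run III:6972041-6972141 (plus), the pcn-1 run IV:4049709-4049809 (minus) and the efl-1 run V:16965794-16965894 (minus).
cdk-5: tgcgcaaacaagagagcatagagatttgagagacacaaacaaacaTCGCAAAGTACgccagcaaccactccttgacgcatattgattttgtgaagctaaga
rfc-4: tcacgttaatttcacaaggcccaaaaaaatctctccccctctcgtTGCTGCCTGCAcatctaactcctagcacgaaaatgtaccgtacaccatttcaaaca
pcn-1: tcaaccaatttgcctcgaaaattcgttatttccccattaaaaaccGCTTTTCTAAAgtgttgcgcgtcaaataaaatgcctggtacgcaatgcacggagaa
efl-1: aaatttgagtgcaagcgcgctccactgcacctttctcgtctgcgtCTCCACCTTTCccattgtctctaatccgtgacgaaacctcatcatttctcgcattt
None of the 4 runs overlaps an annotated UTR, and none holds the Hox recognition sequences described further on.

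Among licensing genes the strongest peak belonged to cdc-6, which encodes the ATPase that works with ORC to load MCM. Its peak had a pooled signal of 184.2 (rank 137) and stood at rank 115 in replicate 1 (signal 121.9) and rank 198 in replicate 2 (signal 66.7), high in both. The summit lay 280 bp upstream of cdc-6 and 99 bp upstream of acin-1 on the other strand, so it sits between divergent genes and nearer to acin-1. The peak of orc-5, an ORC subunit gene, had a signal of 75.3 (rank 829), with rank 713 in replicate 1 and 724 in replicate 2. It lay 94 bp upstream of orc-5 and 534 bp upstream of cyb-1 on the opposite strand, joining a licensing gene and a mitotic cyclin gene at a single summit.

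The 2 other licensing peaks were weaker and each rested more on a different replicate. The orc-1 peak, at the gene of the largest ORC subunit, had a signal of 60.7 (rank 1130) and was ranked 988 in replicate 1 and 1581 in replicate 2. It lay 149 bp upstream of orc-1 and 115 bp upstream of the divergent dhs-11, a dehydrogenase gene. The orc-2 peak had a signal of 64.4 (rank 1041) and was ranked 2277 in replicate 1 and 743 in replicate 2. Its summit was 1196 bp upstream of orc-2, but 124 bp upstream of cyn-4, a cyclophilin gene, and 144 bp upstream of copz-1, a coatomer subunit gene.

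The remaining licensing genes had weak regions or none. For orc-3 the strongest pooled region was ranked 12509, and for cdt-1, whose product delivers MCM to origins, it was ranked 18221. No pooled region had its summit in the window of orc-4, which starts just past the end of orc-1 on the same strand. The nearest optimal summit to orc-4 was that of orc-1, 3190 bp upstream, and a window reaching 5000 bp upstream would count it. Within the 2 replicate lists the best regions at orc-4 were ranked 14187 and 26336.

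**Figure D2:**
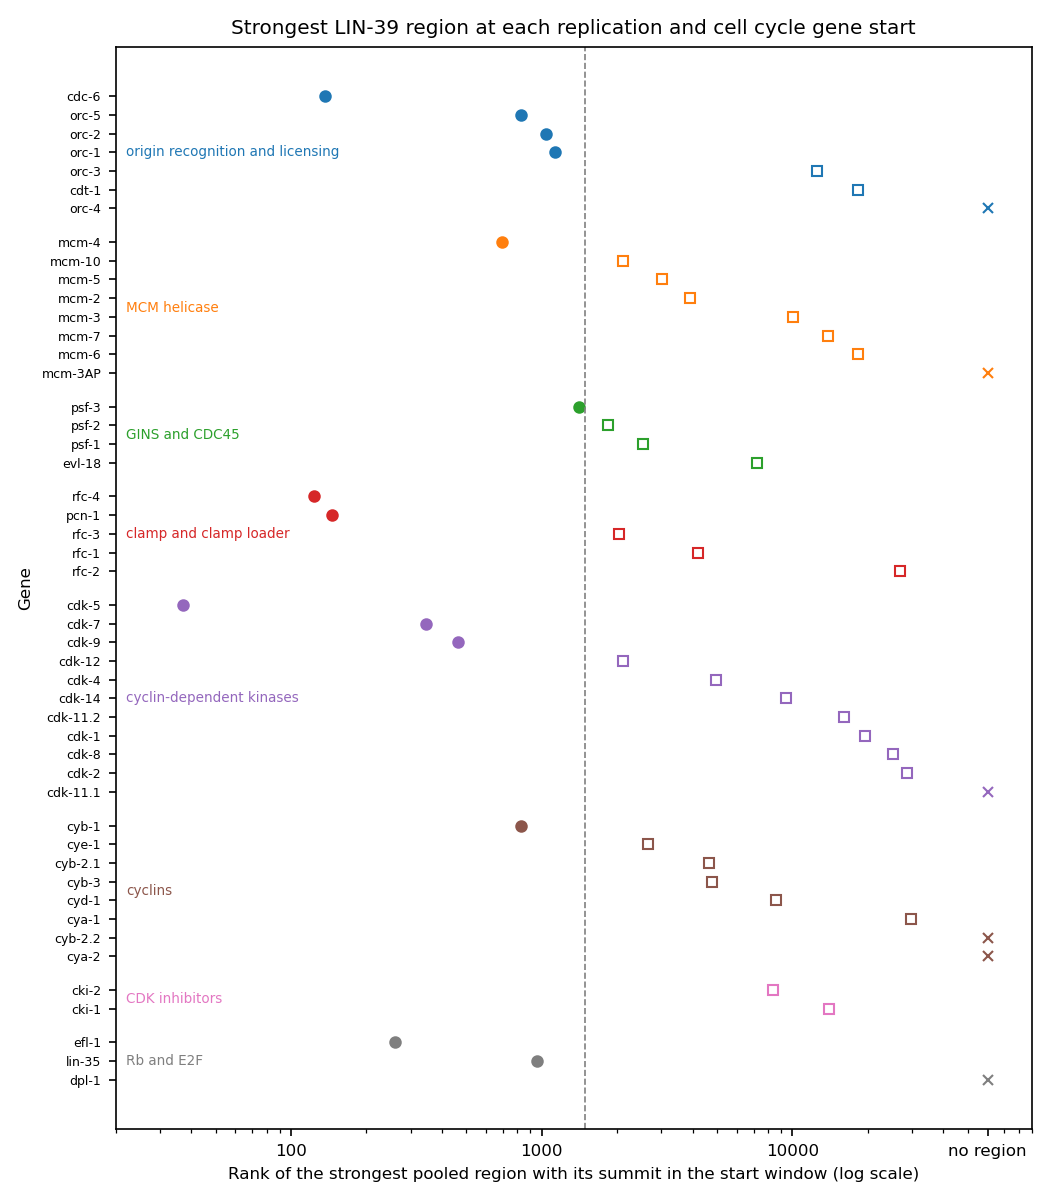
Rank of the strongest pooled region with its summit in each gene's start window, on a log axis with the strongest at the left; rows are the 48 genes grouped by role, filled circles have an optimal peak, open squares do not, crosses have no pooled region and the dashed line is rank 1488. cdk-5 stands farthest left at rank 37, and 6 genes have no pooled region.

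The MCM genes, most of which encode the replicative helicase, had a peak at 1 of 8 (12.5%), beside 8.28% of all protein-coding genes. A region among the strongest 5000 of the pooled list was found at 4 of 8, beside 18.0% of all genes. mcm-4 had a peak with a signal of 84.1 (rank 695), ranked 919 in replicate 1 and 581 in replicate 2, at 188 bp upstream and with no other protein-coding start in reach. At mcm-5 the pooled signal was 34.0 (rank 3019) and the replicates disagreed, with rank 23947 in replicate 1 and 1263 in replicate 2. At mcm-2 the pooled list and replicates 1 and 2 gave ranks of 3903, 2881 and 3341, with summits 272, 271 and 215 bp upstream. Both replicates thus had a weak region near the same place, and the pooled list is made from them. For mcm-3, mcm-7 and mcm-6 the pooled ranks were 10077, 13825 and 18172, and replicate 1 had no region in their windows. mcm-10 was ranked 2118 in the pooled list and 1087 in replicate 1 (173 bp upstream), but 8853 in replicate 2, where its best region lay 423 bp downstream.

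GINS and CDC45 genes, whose products complete the active helicase, had 1 peak, and the other 3 had regions below the threshold. psf-3 had the weakest of the 13 peaks, with a signal of 51.7 (rank 1410), against 50.03 for the weakest optimal peak of all. It was ranked 2893 in replicate 1 and 931 in replicate 2, with the summit 159 bp upstream and also 1495 bp upstream of icd-2. psf-2 followed at a signal of 43.9 (rank 1837), ranked 2196 in replicate 1 and 5203 in replicate 2, with summits 238, 223 and 217 bp upstream in the 3 lists. psf-1 had a signal of 37.2 (rank 2531) and ranks of 1494 and 5466, the first of them 6 places short of the strongest 1488. evl-18, the CDC45 gene, was ranked 7220 in the pooled list but 1901 and 2291 in the replicates, whose summits lay 896 and 611 bp upstream.

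The clamp gene pcn-1, which encodes PCNA, and the loader subunit gene rfc-4 had peaks of similar height. For pcn-1 the signal was 181.4 (rank 146), with rank 136 in replicate 1 and 171 in replicate 2. The pcn-1 summit lay 311 bp upstream of its start, with no other protein-coding start in reach. For rfc-4 the signal was 191.1 (rank 124), with rank 214 in replicate 1 and 69 in replicate 2, and the summit lay 162 bp upstream. That summit was also 379 bp upstream of the divergent eef-1A.1, a translation elongation factor gene, and 1891 bp upstream of F31E3.2. The other loader genes had no peak: rfc-3 was ranked 2028, rfc-1 4197 and rfc-2 26784. The rfc-3 region was 1881 bp from its start and 86 bp from that of prcc-1.

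Among the 11 CDK genes, cdk-5, cdk-7 and cdk-9 had a peak, and cdk-1, cdk-2 and cdk-4 had none. cdk-5, known for roles in neurons, had the strongest of the 13 peaks, with a signal of 310.5 (rank 37), rank 31 in replicate 1 (signal 204.3) and rank 54 in replicate 2 (signal 111.1). Its summit lay 74 bp upstream of cdk-5, inside an intron of kel-3, which overlaps cdk-5 on the opposite strand and starts too far away to count. cdk-7, the kinase that activates other CDKs and belongs to the general transcription factor TFIIH, had a signal of 122.5 (rank 345), with ranks of 389 and 256 and the summit 67 bp upstream, and Y39G10AR.11 started 1855 bp away. cdk-9, the kinase of the elongation factor P-TEFb, had a signal of 104.4 (rank 462), with ranks of 420 and 708, 153 bp upstream of cdk-9 and 264 bp upstream of the divergent hexokinase gene hxk-2.

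The 8 other CDK genes had weaker regions, or in the case of cdk-11.1 no pooled region. cdk-1, the mitotic kinase, was ranked 19425 in the pooled list and 11131 in replicate 1, with no region in replicate 2. cdk-2, the S-phase kinase, was ranked 28551, with replicate ranks of 9028 and 18202 and summits in 3 different places. cdk-4, the partner of cyclin D, was ranked 4969 with a summit 1201 bp upstream, nearer to F18H3.1. The transcription kinase gene cdk-12 came closest to the threshold, at a signal of 40.5 (rank 2110), with ranks of 2202 and 1428 and summits 208, 208 and 227 bp upstream. cdk-8, of the Mediator complex, was ranked 25280, cdk-14 9435 and cdk-11.2 16062.

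Of the 8 cyclin genes, cyb-1, a B-type cyclin gene, had a peak, and orc-5 was the closer start to it. cye-1, the cyclin E gene of the G1 to S transition, had 4 pooled regions in its window, the best at a signal of 36.3 (rank 2663) and ranked 1533 and 3875 in the replicates. That summit was 17 bp from the start of pqn-21. An optimal peak of signal 52.5 (rank 1379) lay 978 bp downstream of the cye-1 start, in an intron and past the edge of the window. The other cyclins were ranked 4640 (cyb-2.1), 4754 (cyb-3), 8589 (cyd-1) and 29636 (cya-1). The CDK inhibitor genes cki-2 and cki-1 had regions ranked 8326 and 13964. At cki-1 the replicates stood apart, with rank 3330 in replicate 1 and 25545 in replicate 2.

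Both the E2F gene efl-1 and the Rb gene lin-35 had a peak. For efl-1 the signal was 143.8 (rank 259), with ranks of 285 and 240 and the summit 169 bp upstream, and it was also 970 bp upstream of fbxa-90 on the other strand. For lin-35 the signal was 68.3 (rank 955), with ranks of 991 and 961, the summit 186 bp upstream of lin-35 and 232 bp upstream of the divergent vps-51. dpl-1, the DP partner of EFL-1, had no region in its window in any of the ranked lists, and its nearest optimal summit was 56820 bp away.

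**Figure D3:**
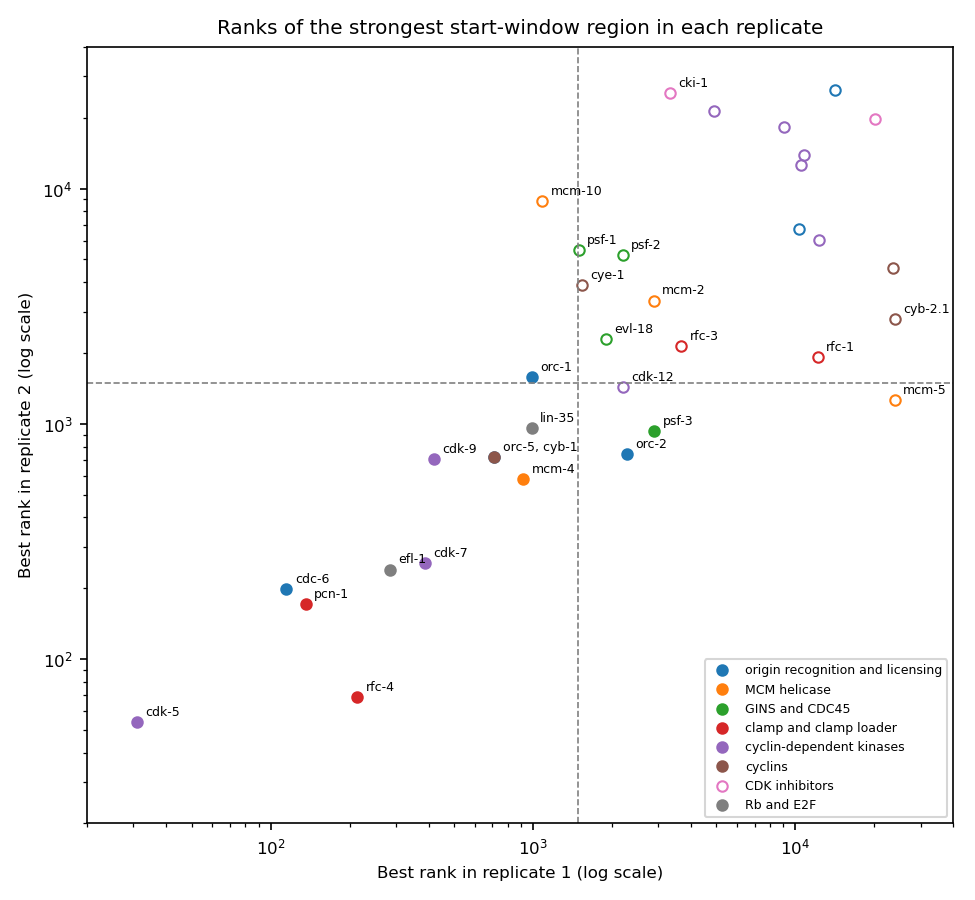
Best rank in replicate 1 (horizontal) against replicate 2 (vertical), both on log axes, for the 35 genes with a region in the start window in both lists; colours are roles, filled points have an optimal peak and dashed lines mark rank 1488. Filled points follow the diagonal from cdk-5 (31 and 54) to psf-3 (2893 and 931), while mcm-5 (23947 and 1263) and mcm-10 (1087 and 8853) lie far to either side of it.

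The optimal set holds reproducible peaks by definition, so some agreement of the replicates at the 13 peaks is built in. The pooled summit is derived from both replicates, so distances to it do not compare the replicates directly. Summits of the overlapping replicate 1 regions lay 0 to 25 bp from the pooled summit and those of replicate 2 lay 0 to 65 bp from it. In 10 of 13 (76.9%) the peak overlapped one of the strongest 1488 regions of both replicates by at least 1 bp, beside 70.1% of all optimal peaks in a start window, and the exceptions were orc-1, orc-2 and psf-3. Where the overlap had to reach 50% of both regions the count was 6 of 13 (46.2%), beside 56.6%, so the share then lay below that of all peaks in a start window. The peaks lost were narrow: cdk-5 (199 bp), rfc-4 (169 bp), pcn-1 (184 bp) and efl-1 (116 bp), beside a median width of 340 bp. All of these ranked high in both replicates. The cdc-6 peak was also narrow (165 bp) but kept the overlap in both replicates. With 2 times as many strongest regions and an overlap of 1 bp the count was 13 of 13, beside 89.6%. With the strongest 1488 regions of replicate 1 alone in place of the optimal set, mcm-10 would join the 14 genes and orc-2 and psf-3 would leave. With those of replicate 2 alone, cdk-12 and mcm-5 would join and orc-1 would leave. These single lists hold ranked regions without a reproducibility threshold.

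With weaker regions counted along with the optimal peaks, more of these starts held a region. The shares that follow, of the 48 and of all genes, include genes with an optimal peak. A region among the strongest 5000 of the pooled list had its summit in the window of 26 of the 48 genes (54.2%, interval 39.2 to 68.6%), beside 18.0% of all genes, and 12 of these 26 had no optimal peak. Any pooled region was found at 42 of 48 (87.5%), beside 54.9% of all genes. Over the 42, the median best rank was 3461, and it was 10225 over the 10970 genes of the genome with a region. mcm-3AP, dpl-1, cya-2 and cyb-2.2 had no region in any of the 3 ranked lists, and cdk-11.1 and orc-4 had none in the pooled list.

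Sequence that occurs more than once in the genome moves with some of these blanks. In the start window of cya-2, 26.8% of 30-base words occurred once in the genome, and the values were 61.2% for mcm-3AP and 66.1% for cyb-2.2, beside a median of 99.6% over all genes. The value was 100% for dpl-1, cdk-11.1 and orc-4, where repeated sequence is thus absent at this word length. Low values also occurred at genes with regions, such as rfc-2 (59.9%) and cdk-11.2 (67.4%), and at mcm-4 (81.3%) and psf-3 (88.7%), which had peaks. How repeated reads were treated is not stated, and the part of repeats in the blanks was not tested.

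The position of the 13 summits was close to that of other peaks at starts. All 13 were upstream of the nearest start, at a median of 153 bp, and so were 981 of 1049 optimal peaks in a start window (93.5%), at a median of 194 bp. In 12 the summit was intergenic, here meaning outside every protein-coding gene (92.3%, beside 86.4% of the 1049), and that of cdk-5 was intronic. A second protein-coding start lay in reach of the summit in 10 of 13 (76.9%), beside 518 of 1049 (49.4%). At mcm-4, pcn-1 and cdk-5 no other protein-coding start was in reach, though the cdk-5 summit lay in an intron of kel-3. Starts of other gene types were not considered. Summits in reach of several starts had more chances of entering the set of 13, because any start in reach could bring them in. The shares of summits with a second start are therefore not directly comparable, and an excess at these genes is not shown. The median signal was 104.4, beside 84.6 for all peaks in a start window. The GC content within 100 bp of the summit had a median of 38.3% (range 30.8 to 46.8%), beside 39.8%.

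**Figure D4:**
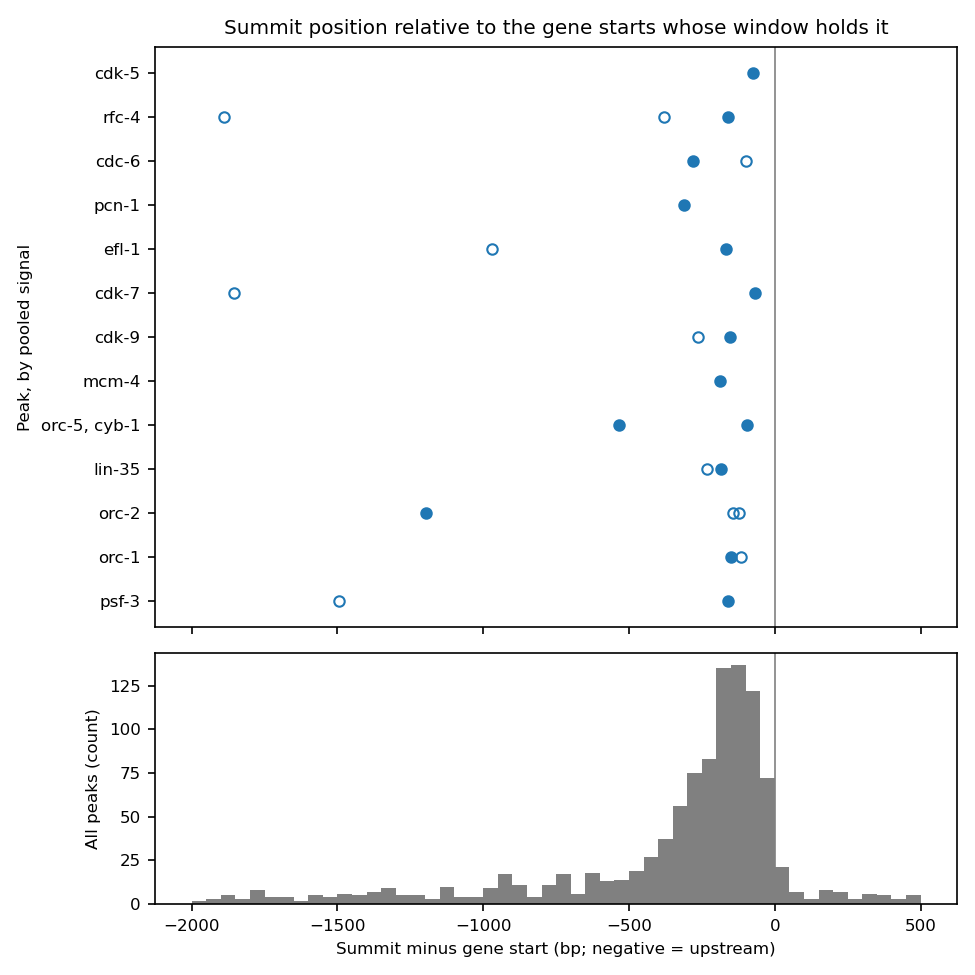
Upper panel: position of the 13 summits in bp relative to each gene start whose window holds them, negative meaning upstream, with filled points for the replication and cell cycle genes and open points for other genes; rows run from the strongest peak down. Lower panel: the same distance, to the nearest start, for all 1049 optimal peaks in a start window. Most filled points lie between 67 and 311 bp upstream, with cyb-1 (534 bp) and orc-2 (1196 bp) farther out.

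Motifs were sought on both strands. They were the E2F core TTTNGCGC, the CHR core TTTGAA known from mitotic gene promoters, the composite TGATNNAT bound by Hox proteins with PBC cofactors, and the homeodomain core TAATTA. Matches of different motifs may overlap each other. In promoter windows of 300 bases, from 250 upstream of the start, the E2F core was found at 8 of the 48 genes (16.7%, interval 7.48 to 30.2%), beside 3.83% of all promoters. Of the 14 genes with a peak 3 had it (mcm-4, orc-1 and pcn-1), and of the 34 without a peak 5 had it. The 3 of 14 (interval 4.66 to 50.8%) stood beside 110 of 1653 (6.65%) of all genes with an optimal peak, a share inside that interval. The Hox composite was found at 4 of 48 (8.33%, interval 2.32 to 19.98%), beside 23.6% of all promoters. It was at 0 of the 14 genes with a peak (interval up to 23.2%), beside 19.7% of all genes with an optimal peak, and at 4 of the 34 without. The CHR core was at 35 of 48 (72.9%), beside 62.5%, and the homeodomain core at 6 of 48 (12.5%), beside 15.5%.

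The E2F cores belonged to 5 of 8 MCM genes (mcm-3, mcm-4, mcm-5, mcm-6 and mcm-7), 2 of 5 clamp and clamp loader genes and 1 of 7 licensing genes, and to none of the CDK, cyclin, GINS, CDK inhibitor or Rb and E2F genes. The 7 off the first chromosome are shown because the core was the motif with the largest ratio between its share of these promoters and of all promoters among the 4 searched. Each run is on the gene's strand with the core in capitals, reverse-complemented where it lies on the other strand, and 10 bases to either side.
mcm-3 (V:15059726-15059753): cggagcgagcGCGCGAAAccttgctgtt
mcm-5 (III:4291443-4291470): tgaggcgcggGCGCCAAAaattttcaaa
mcm-6 (III:9794110-9794137): gccgcacagtTTTCGCGCctaatttgtc
mcm-7 (V:4347008-4347035): ggaggcaaacGCGCGAAAttcgaacgga
orc-1 (III:10643047-10643074): ttctcctcgaTTTCGCGCattttcatca
pcn-1 (IV:4049619-4049646): tcgaaaacgcGCGCGAAActtcattcat
rfc-2 (IV:1347214-1347241): aattttaagcGCGCCAAActgattttct
The cores began 72 (orc-1) to 247 bp (mcm-6) upstream of the start. At genes with an optimal peak, the core centre lay 61 bp (mcm-4), 81 bp (orc-1) and 127 bp (pcn-1) from the summit. At genes whose best pooled region was weak it lay 8 bp (mcm-5), 15 bp (mcm-3), 46 bp (mcm-7), 232 bp (rfc-2) and 236 bp (mcm-6) from that summit, so the distances of the 2 sets overlap.

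**Figure D5:**
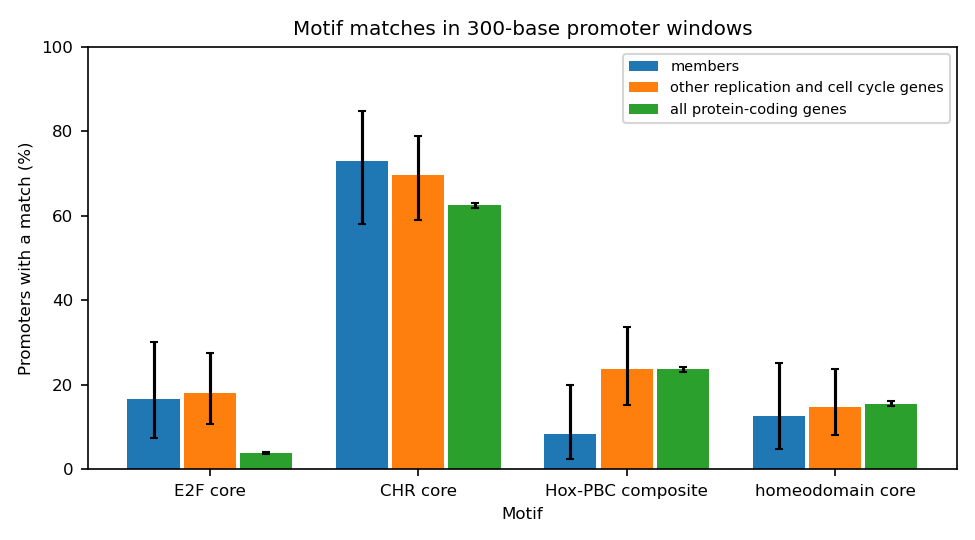
Percent of promoter windows of 300 bases with a match to each motif, for the 48 genes, 89 other replication and cell cycle genes and all 19973 protein-coding genes; bars start at 0 and error bars are exact binomial 95% intervals. The E2F core stands at 16.7% and 17.98% in the first 2 sets and 3.83% in the third, and the Hox composite at 8.33%, 23.6% and 23.6%.

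At the peaks themselves, within 100 bp of the summit, the E2F core was found at 2 of 13 (15.4%, interval 1.92 to 45.4%), those of mcm-4 and orc-1, beside 6.45% of all optimal summits. Within 50 bp it was found at 0 of 13 (interval up to 24.7%), beside 3.43% of all optimal summits. Within 200 bp it was found at 3 of 13 (23.1%), beside 8.87%. With 13 peaks, the order of such shares cannot be told. The Hox composite was found at 0 of 13, which allows a share of up to 24.7% by the exact interval, beside 17.0% of all optimal summits. The homeodomain core was found at 1 of 13, that of orc-2, beside 7.8%, and the CHR core at 6 of 13 (46.2%), beside 38.4%. The intervals of the shares at these 13 peaks all hold the shares of all peaks.

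The wider replication and cell cycle machinery was described with a list of 89 other genes. An optimal summit lay in the window of 21 of them (23.6%, interval 15.2 to 33.8%), beside the same 8.28% of all genes, and 11 were the nearest start (12.4%, beside 5.14%). The 15 with the strongest peaks were lin-54 (signal 381.0), lin-53 (247.2), lin-9 (236.6), pole-2 (189.1), tim-1 (174.4), top-2 (144.7), ctf-4 (139.7), atm-1 (136.8), mdf-2 (122.8), wee-1.3 (89.7), cic-1 (86.9), scc-1 (86.4), gmn-1 (76.2), chk-1 (72.0) and cul-4 (69.4). lin-54, lin-53 and lin-9 encode partners of LIN-35 in the DRM complex, which represses cell cycle genes. The lin-54 summit, 345 bp upstream, lay nearer to the ribosomal protein gene rpl-12, and that of lin-53 nearer to nra-2, whereas lin-9 was the nearest start to its own. With lin-37 (55.4) counted, 6 of the 8 DRM genes, lin-35, efl-1, lin-9, lin-37, lin-53 and lin-54, had a summit in the window, and dpl-1 and lin-52 did not. This set of 8 was put together after the values were seen. The lin-37 summit was 1629 bp from its start, nearer to ZK418.5, and replicate 2 had no region there.

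Several of the 15 genes act in replication or its control. pole-2 encodes a DNA polymerase epsilon subunit, and its summit was 1340 bp away and nearer to snrp-3. tim-1 and ctf-4 encode replisome factors, and their summits were nearer to Y75B8A.23 and eef-1G. atm-1 and chk-1 encode DNA damage checkpoint kinases, of which chk-1 was the nearest start to its summit, 254 bp upstream. wee-1.3 encodes a kinase that inhibits CDK-1. Its peak, 384 bp upstream with no other protein-coding start in reach, was ranked 479 in replicate 1 and 1552 in replicate 2. cul-4 encodes a ubiquitin ligase subunit known to limit CDT-1, and its peak was likewise unshared, 222 bp upstream, with ranks of 739 and 1590. mdf-2 (a spindle assembly checkpoint gene) and cic-1 (the cyclin C gene) were the nearest starts to their summits, 59 and 116 bp upstream, whereas the summit of the cohesin gene scc-1 was nearer to rpn-5. gmn-1 encodes geminin, the inhibitor of CDT-1, and its summit was 981 bp upstream and nearer to Y75B8A.18.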

How the data were processed

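The data are region lists from LIN-39-eGFP ChIP-seq in 2 biological replicates of 1 group. Per the submitters' file notes, replicate alignments and a control went into the lists. No aligner or peak caller is named in the labels. The deposited signal score of each region has no scale stated by the authors. The deposited −log10 q reaches at most 3.51 in the pooled list, so regions were ranked by signal. Summits were placed with the deposited offset from each region's first base. The ce10 lists were not used here. No regions of the replicates had identical coordinates (0).

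Analyses used Python 3.11.15, numpy 2.4.6, pandas 2.3.3, scipy 1.17.1 and matplotlib 3.10.9, with ce11 coordinates on the WBcel235 genome and Ensembl release 115 genes. The start is the outer 5' end of the gene. Shares are given beside those of all protein-coding genes, with no test. Assignment and motif search were tested on simulated data. Of 95 further symbols, 6 had no protein-coding match. The genes and lists were chosen with earlier results of these data known. Named were all genes with an optimal summit, the 10 best ranked without one and those without a pooled region, the 15 other genes with the strongest peaks, and genes sharing a summit; further names were added after their values were seen, to complete each family. Alternatives covered windows, assignment, thresholds, overlaps, transcript starts and single replicates.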

Additional observations from a re-analysis of the deposited data

How the results depend on the processing

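Counts of genes with a peak depended on how many peaks were admitted and on how peaks were given to starts. With the strongest 744 optimal peaks the count fell from 14 to 8 of 48 replication and cell cycle genes and from 21 to 12 of the 89 other genes, as fewer peaks were counted. The share of all protein-coding genes fell from 8.28% to 4.66%. With each peak given to its nearest start, the other genes fell from 21 to 11, and the share of all genes from 8.28% to 5.14%. With an overlap of 50% of both regions, 6 rather than 10 of the 13 peaks were among the strongest regions of both replicates (46.2% rather than 76.9%), beside 56.6% rather than 70.1% of all peaks in a start window, so the order turned. The peaks lost were narrow ones, though the narrow cdc-6 peak was kept. With 2 times as many strongest regions it was 13 of 13, beside 89.6%. With 50 bp to either side of the summit, the E2F core was found at 0 rather than 2 of 13, beside 51 rather than 96 of all 1488. With 200 bp it was 3 of 13, beside 132 of 1488, and 13 peaks are too few to order such shares. Under all other alternatives tried the counts stayed within 1.5 times the value reported: from 10 to 15 for the 48 genes and from 16 to 25 for the 89. The share of all genes moved as well. With 5000 bp upstream it was 12.6%, beside 15 of the 48 and 25 of the 89. With 1000 bp upstream it was 6.66%, beside 13 of the 48 and 19 of the 89. The top 1488 regions of a single replicate, used in place of the optimal set, gave 13 to 15 of the 48 and 16 to 19 of the 89. The share of all genes was then 8.03% with replicate 1 and 7.96% with replicate 2. The strongest 5000 regions of a single replicate gave 24 of the 48 each time, beside 17.5% of all genes with replicate 1 and 17.4% with replicate 2. No paired analysis was possible because there is 1 group and no test. Depth is unknown, so how far it limits the weak regions cannot be stated.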

Other observations

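The genes with peaks were spread over the autosomes. The first chromosome held 6 of the 14 among 13 of the 48 genes, beside 11.8% of all its protein-coding genes with a peak. Chromosome III held 3 among 12 (12.9% of its genes), IV held 3 among 7 (8.53%), II held 1 among 9 (8.002%) and V held 1 among 5 (5.75%). On X, 0 of 2 genes, cdk-4 and cdk-11.2, had a peak, beside 4.76% of all its genes.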
